A study of Mus musculus with 7 samples.

Results

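The genes described here are 7 genes of MHC class II antigen presentation: H2-Aa, H2-Ab1, H2-Eb1, H2-DMa, H2-DMb1, Cd74 and Ciita. They were chosen by symbol, and all 7 were among the 17537 genes of the table and among the 13976 genes tested. Their expression was measured by RNA sequencing of polyA-selected RNA from the kidneys of C57BL/6 mice, with a directional library kit, in 7 libraries. The control group (C, replicates 2, 8 and 9) was nondiabetic and, by the study's methods, received the sodium citrate vehicle alone. The diabetic group (DM-22, replicates 1 and 2) was given low-dose streptozotocin (STZ), which destroys the insulin-producing beta cells, at 60 mg/kg on 5 days, and stayed hyperglycemic until week 22. The treated diabetic group (DM+SGLT2i, replicates 1 and 2) received the same STZ and, from week 16 for 6 weeks, dapagliflozin at 25 mg/kg in the drinking water. Dapagliflozin inhibits the sodium/glucose cotransporter SGLT2 and lowers blood glucose. All groups were wild-type, and the labels give male mice aged 8 to 10 weeks, whereas the methods of the study name both sexes. By those methods, STZ was given at 8 weeks of age, and weeks 16 and 22 count from the onset of hyperglycemia. The kidneys thus came from older mice than the labelled age. No control group treated with the SGLT2 inhibitor was sequenced among these libraries. The comparisons ask how class II expression differed between diabetic and nondiabetic kidneys, and whether it differed after glucose lowering.

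MHC class II molecules present peptides from endocytosed proteins to CD4+ T cells. H2-Aa and H2-Ab1 encode the alpha and beta chain of the I-A molecule, and H2-Eb1 encodes the beta chain of I-E, whose alpha chain is not made in C57BL/6 mice. Cd74 encodes the invariant chain, which guides newly made class II molecules to the endosome and blocks their groove, and H2-DMa and H2-DMb1 encode the H2-DM heterodimer, which exchanges the remaining invariant chain fragment for peptide. Ciita encodes the class II transactivator, which binds no DNA itself and acts through the RFX, CREB and NF-Y proteins assembled on the X and Y boxes of class II promoters. In the kidney, class II is known mainly from dendritic cells and macrophages of the interstitium, and tubular cells can acquire it under interferon-gamma.

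The X and Y boxes were looked for in promoter windows, which run from 250 bases before to 50 bases after the start of a gene, from RefSeq on GRCm38.p6. Windows were given for 4 of the 7 genes (H2-Aa, H2-Eb1, H2-DMa and H2-DMb1). The letters were searched on both strands: AACNGATG as an X box core, TGACGTCA as the neighbouring CREB-binding element, and GATTGG as the Y box, whose reverse is the CCAAT sequence. They were found in 2.32%, 1.79% and 16.11% of 32851 windows. The 4 sequences below are shown because they carry these letters near the start of class II genes, with the matches in capitals, 5′ to 3′ on the strand of the gene. H2-DMb2, the neighbouring copy of H2-DMb1, is shown for comparison, and H2-DMb1 is shown around its X box core only.
H2-Aa: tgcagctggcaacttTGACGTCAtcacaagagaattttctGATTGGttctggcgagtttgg
H2-Eb1: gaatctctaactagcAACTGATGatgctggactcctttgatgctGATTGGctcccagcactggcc
H2-DMb2: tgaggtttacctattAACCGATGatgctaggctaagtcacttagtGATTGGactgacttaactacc
H2-DMb1: gtttacctagtAACTGATGatgctaggctg

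On GRCm38 the H2-Aa sequence lies at chr17:34287852-34287912 on the minus strand, outside any annotated gene. The H2-Eb1 sequence lies at chr17:34305763-34305827 on the plus strand, in an intron of the antisense gene Gm20513. The H2-DMb2 sequence lies at chr17:34145113-34145178 on the plus strand, in an intron of the annotated H2-DMb2 gene. The H2-DMb1 sequence lies at chr17:34153088-34153117 on the plus strand, in the 5′ untranslated region of one annotated H2-DMb1 transcript. The X box core and the Y box were 21 bases apart in H2-Eb1 and 22 bases apart in both H2-DMb1 and H2-DMb2. Only 6 of the 32851 windows held both on the strand of the gene with at most 30 bases between them, and 5 of the 6 lay in the class II region of chromosome 17 (H2-DMb2, H2-DMb1, H2-Eb1, H2-Eb2 and BC051142). The other window was that of G3bp2 on chromosome 5. In H2-Aa the TGACGTCA element and the Y box were 17 bases apart, and no AACNGATG was found in its window. Of the 2 windows of H2-DMa, 1 held a Y box alone.

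The libraries held between 46456125 and 56541594 reads on the listed genes, and 1 read corresponded to between 0.0180 and 0.0231 CPM (read counts after scaling all libraries to 1 nominal size). One library labelled as control stood apart, and whether its label is right cannot be told from these data. In C replicate 2 the summed expression of 6 markers of tubular injury was 6236 CPM against 931 and 761 CPM in the other controls and 1824 to 3093 CPM in the diabetic libraries. Its 6 markers of the proximal tubule, which define kidney cortex, summed to 5472 CPM against 15280 and 13180 CPM in the other controls, and DM-22 replicate 1 was similarly low at 5721 CPM. DM+SGLT2i replicate 1 held 209 CPM of adipose tissue markers, and the other libraries at most 9.90 CPM. The comparisons with C are therefore given with all 3 controls and without C replicate 2, and values with all 3 controls hold only if this library is a control. C replicate 2 was singled out from these data, and it was also the highest library for all class II genes but Ciita. Leaving it out therefore raised the fold changes of those genes against C and narrowed their spread. The p-values without it do not allow for this choice. The nuclear RNAs Malat1 and Neat1, named after their values were seen, also differed between libraries. Malat1 was at 47.5, 292 and 389.8 CPM in C, 32.3 and 41.8 CPM in DM-22, and 111 and 38.3 CPM in DM+SGLT2i. The labels do not say whether a library came from 1 animal, so that the p-values measure the spread between these libraries.

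The genes of the class II chains were expressed well above 1 CPM in every kidney, and C replicate 2 was the highest library for all but Ciita. H2-Aa (chr17:34282744-34287823) was at 326, 78.4 and 88.9 CPM in C replicates 2, 8 and 9, at 157 and 144 CPM in DM-22 replicates 1 and 2, and at 149 and 188 CPM in DM+SGLT2i replicates 1 and 2. H2-Ab1 (chr17:34257689-34269419), in the same order of libraries, was at 332, 83.7 and 96.3 CPM in C, 124 and 139 CPM in DM-22, and 149.5 and 182 CPM in DM+SGLT2i. In both genes the diabetic libraries lay between the 2 low controls and the high one. H2-Eb1 (chr17:34305867-34316674) was at 284, 75.4 and 82.4 CPM in C, 127 and 131 CPM in DM-22, and 145 and 170.2 CPM in DM+SGLT2i. Its messenger RNA thus had the pattern of the I-A genes, although the I-E molecule is not formed in this strain.

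Cd74 (chr18:60803848-60812652), the invariant chain, was the most abundant of the 7 genes. It was at 792, 209.8 and 224 CPM in C, 354 and 369 CPM in DM-22, and 419.9 and 495 CPM in DM+SGLT2i. The peptide editor H2-DMa (chr17:34119541-34139101) was at 27.7, 7.43 and 8.87 CPM in C, 10.2 and 10.1 CPM in DM-22, and 11.98 and 15.8 CPM in DM+SGLT2i. Both had C replicate 2 above all other libraries and C replicates 8 and 9 below all others. H2-DMb1 (chr17:34153072-34160230) was at 50.7, 21.7 and 23.7 CPM in C, 23.0 and 28.4 CPM in DM-22, and 32.7 and 35.1 CPM in DM+SGLT2i, so that DM-22 overlapped with the low controls.

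Ciita (chr16:10480059-10528418), the transactivator, had another pattern. It was at 7.06, 5.98 and 5.53 CPM in C, 2.70 and 3.47 CPM in DM-22, and 8.73 and 5.33 CPM in DM+SGLT2i. Both DM-22 libraries were below all 5 others, and C replicate 2 was close to the other controls. Of all genes tested, 9.29% had both DM-22 libraries below all 3 controls, and the share below all 5 others was not counted. Malat1 and Neat1 were also low in DM-22, by -2.24 ± 0.92 and -2.25 ± 0.73 on the log2 scale against all 3 controls and by -3.18 ± 0.48 and -2.94 ± 0.47 without C replicate 2 (adjusted p of 0.804 and 0.0826 for both, limma), but unlike Ciita they were low in C replicate 2 as well, with Neat1 at 46.3 CPM there and 165 and 237 CPM in the other controls. The part of such differences in RNA composition in the Ciita values was not tested. These values of Ciita rested on 150 reads in each DM-22 library and on 259 to 446 reads in the others.

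**Figure D1:**
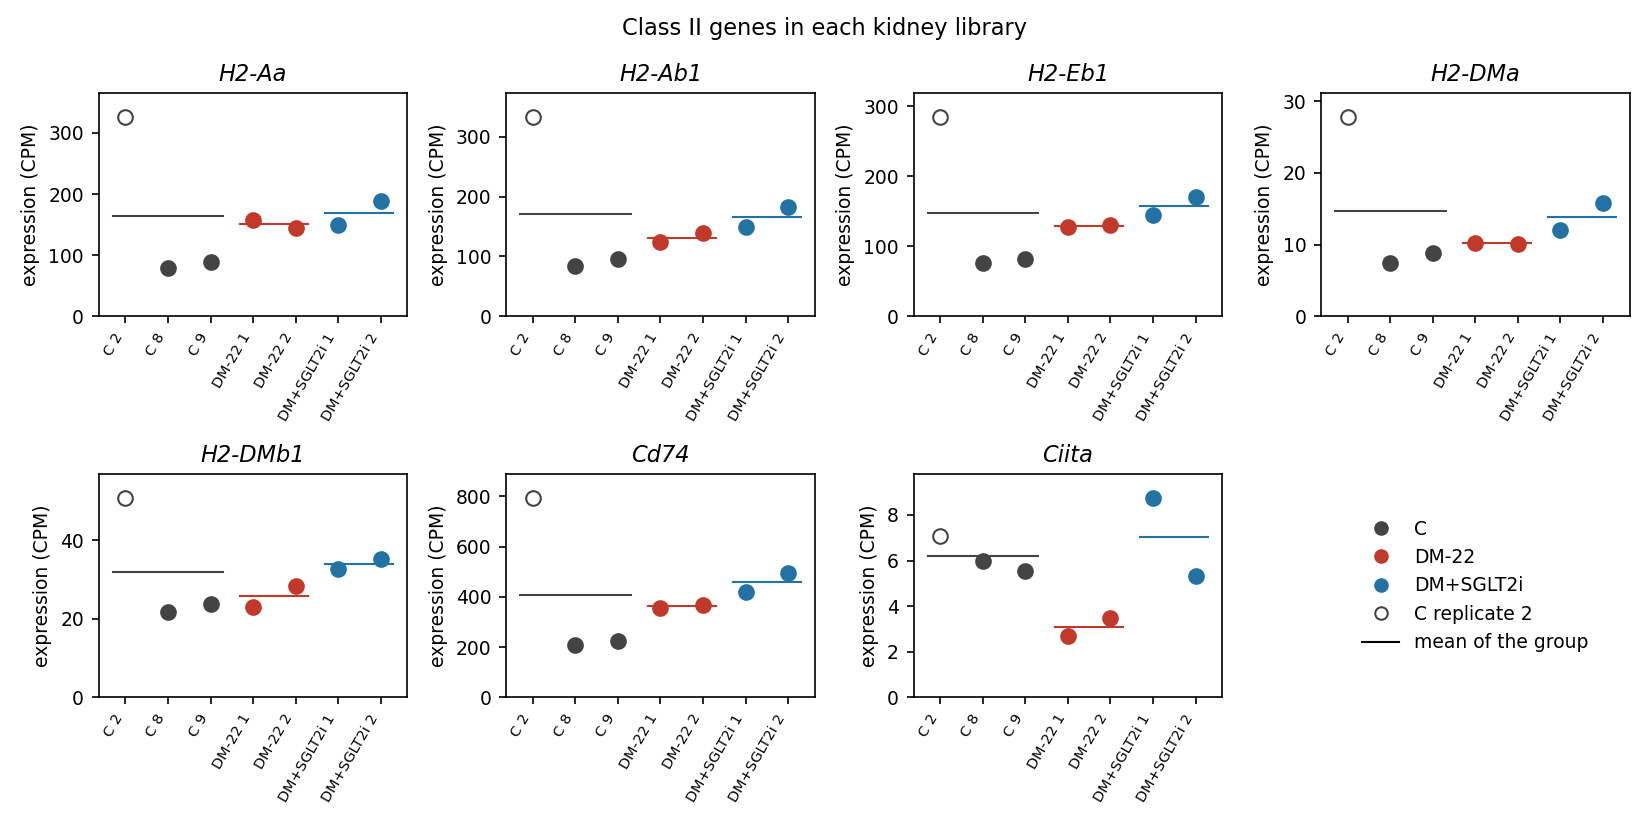
Expression of the 7 class II genes in each library (CPM, linear axes from 0, points are single libraries, horizontal lines are group means, the open point is C replicate 2). C replicate 2 is the highest library for 6 genes, at 326 CPM for H2-Aa and 792 CPM for Cd74, whereas Ciita is lowest in the DM-22 libraries at 2.70 and 3.47 CPM.

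C replicate 2 exceeded the mean of C replicates 8 and 9 by 3.89-fold for H2-Aa, 3.69-fold for H2-Ab1, 3.60-fold for H2-Eb1, 3.65-fold for Cd74, 3.40-fold for H2-DMa and 2.23-fold for H2-DMb1. Among all genes tested, 1.60% had a larger excess in this library than H2-Aa and 7.005% had a larger excess than H2-DMb1. For Ciita the excess was 1.23-fold, and 31.0% of the genes tested had a larger one. The summed expression of the 6 genes other than Ciita was 1812 CPM in C replicate 2, 476 and 524 CPM in C replicates 8 and 9, 795 and 820 CPM in DM-22, and 908 and 1087 CPM in DM+SGLT2i. In bulk tissue, fewer cells of a type and less RNA per cell cannot be told apart.

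Per kilobase of annotated exon, the order of the levels was the same in all 7 libraries: Cd74, H2-Eb1, H2-Ab1, H2-Aa, H2-DMb1, H2-DMa and Ciita. The levels were 125 to 471 CPM per kb for Cd74, 38.8 to 146 for H2-Eb1, 32.6 to 129 for H2-Ab1, 20.6 to 85.7 for H2-Aa, 12.9 to 30.1 for H2-DMb1, 2.16 to 8.04 for H2-DMa and 0.283 to 0.915 CPM per kb for Ciita. The ranges over libraries overlapped between neighbours in this order from Cd74 down to H2-DMb1. H2-DMa and Ciita overlapped with neither neighbour. The lengths join the exons of all annotated transcripts of a gene, and which of these transcripts were made here was not tested. The gaps between genes therefore depend on the annotation.

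The proportions among the genes were steadier than their levels. Relative to H2-Ab1 per kilobase, H2-Eb1 varied with a coefficient of variation of 6.58% over the 7 libraries, H2-DMa with 7.50%, Cd74 with 7.94%, H2-Aa with 11.2% and H2-DMb1 with 17.5%. The coefficient of variation of the levels themselves was between 33.0% and 52.8% for these genes and H2-Ab1. With C replicate 2 left out, that of the levels fell to between 20.3% and 32.2%, and that of the ratios was 6.11% for H2-Eb1, 7.53% for Cd74, 8.21% for H2-DMa, 12.04% for H2-Aa and 13.5% for H2-DMb1, so that the contrast was smaller. Ciita relative to H2-Ab1 varied by 51.7% (47.9% without C replicate 2), from 0.00572 in C replicate 2 and 0.00586 in DM-22 replicate 1 to 0.0192 in C replicate 8. In C replicate 2 the denominator H2-Ab1 was 3.69-fold over the mean of C replicates 8 and 9, and Ciita 1.23-fold. The low ratio in that library thus came from a high H2-Ab1 and not from a low Ciita. Ciita itself spanned 3.23-fold from its lowest to its highest library.

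**Figure D2:**
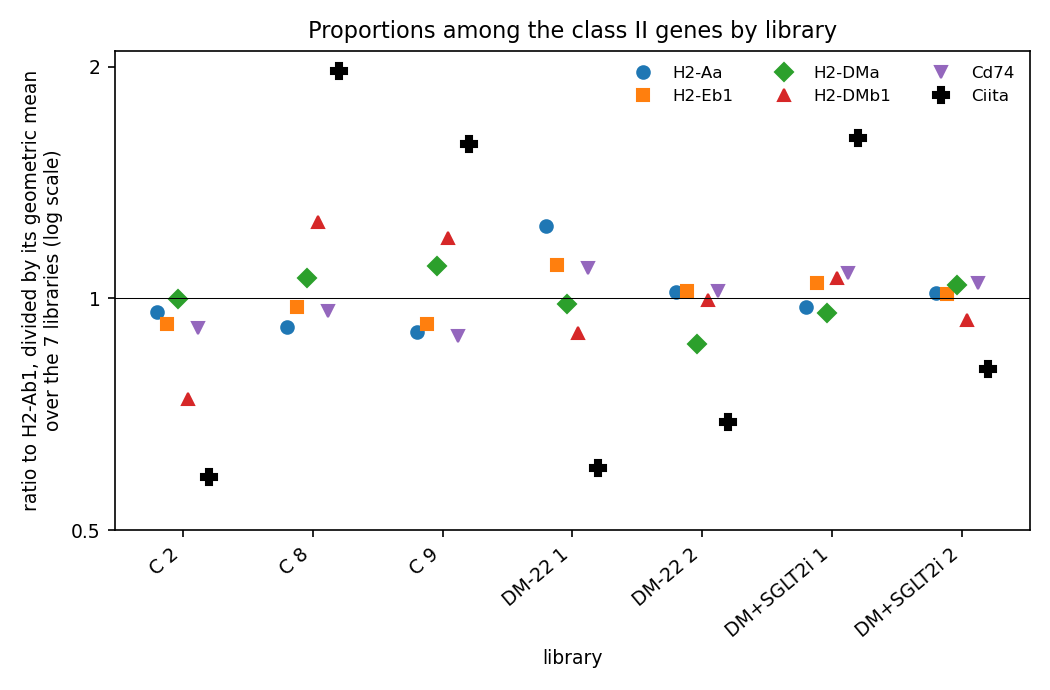
Ratio of 6 class II genes to H2-Ab1 (both in CPM per kb) in each library, divided by the geometric mean of that ratio over the 7 libraries (log axis, points are single libraries). H2-Eb1, H2-DMa and Cd74 vary least (coefficients of variation of 6.58% to 7.94%), H2-Aa is highest in DM-22 replicate 1, H2-DMb1 is lowest in C replicate 2, and Ciita varies most at 51.7%.

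Over the 7 libraries, on the log2(CPM + 0.5) scale, Pearson's r of the 15 pairs among the 6 genes other than Ciita lay between 0.894 (H2-Aa and H2-DMb1) and 0.999 (H2-Eb1 and Cd74). Without C replicate 2 it lay between 0.747 and 0.999 over 6 libraries. Ciita had an r of 0.0927 to 0.476 with the 6 genes, and of -0.250 to 0.366 without C replicate 2. These correlations are a description, since the genes share libraries, depth and scaling.

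Compared to controls (C), no class II gene passed the test in diabetic mice (DM-22) with all 3 controls (limma on log2(CPM + 0.5), adjusted p between 0.804 and 0.977), and 0% of all genes tested passed. The log2 fold changes of the 6 genes other than Ciita lay between -0.27 (H2-DMa) and 0.19 (H2-Aa), with standard errors of 0.36 to 0.59. Ciita differed by -0.90 ± 0.26 (SE), the only one of the 7 with an unadjusted p below 0.05 (adjusted p = 0.804, limma). Of all genes tested, 3.28% were lower and 1.19% higher at this unadjusted threshold. Ciita was also the only class II gene whose DM-22 and C libraries did not overlap, which held in the lower direction for 9.29% of the genes tested. The median over the 7 genes was -0.08, and that over all genes tested was 0.00447.

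When C replicate 2 was left out, the class II chains and Cd74 had higher estimates in DM-22 than in C, and none passed the adjusted threshold. The log2 fold change was 0.85 ± 0.16 (SE) for H2-Aa, a 1.80-fold difference with an adjusted p of 0.0826. H2-Eb1 differed by 0.71 ± 0.13 (adjusted p = 0.0826), Cd74 by 0.74 ± 0.15 (adjusted p = 0.0918) and H2-Ab1 by 0.54 ± 0.15 (adjusted p = 0.119). These 4 genes had an unadjusted p below 0.05, as did 10.4% of all genes tested in the higher direction. H2-DMa and H2-DMb1 had smaller estimates of 0.30 ± 0.19 and 0.17 ± 0.15, with 95% intervals from -0.15 to 0.76 and from -0.19 to 0.53. Ciita differed by -0.81 ± 0.27 (adjusted p = 0.146), and 14.8% of all genes had an unadjusted p below 0.05 in the lower direction. Only 0.0143% of the genes tested passed the adjusted threshold. The DM-22 libraries were above both remaining controls for 5 class II genes and below both for Ciita, as they were for 29.9% and 29.5% of all genes, so that the absence of overlap separates few genes in groups this small. The median over the 7 genes was 0.54, and over all genes tested 0.00558.

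In treated diabetic mice (DM+SGLT2i), all 7 genes had positive estimates against all 3 controls and none passed the test (adjusted p = 0.9997 for each, limma, with 0% of all genes called). The estimates of the 6 genes other than Ciita lay between 0.16 (H2-DMa) and 0.45 (Cd74), and their 95% intervals spanned 0. At an unadjusted p below 0.05 there were none of the 7 genes, against 0.665% of all genes higher and 0.415% lower. The median over the 7 genes was 0.25, beside -0.0133 over all genes.

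With C replicate 2 left out, the 6 genes other than Ciita were estimated at 1.49 to 2.102 times the control level in DM+SGLT2i. Cd74 differed by 1.07 ± 0.15 on the log2 scale (adjusted p = 0.0749), H2-Eb1 by 0.99 ± 0.13 (adjusted p = 0.0724), H2-Aa by 1.0 ± 0.16 (adjusted p = 0.0880) and H2-Ab1 by 0.87 ± 0.15 (adjusted p = 0.0987). H2-DMa and H2-DMb1 differed by 0.73 ± 0.19 and 0.57 ± 0.15, both with an adjusted p of 0.160. All 6 had an unadjusted p below 0.05, as did 8.73% of the genes tested in the higher direction and 9.14% in the lower, while 0.122% of all genes passed the adjusted threshold. Both DM+SGLT2i libraries were above both controls for the 6 genes, as for 28.2% of all genes. Ciita differed by 0.23 ± 0.27 (adjusted p = 0.680). The median over the 7 genes was 0.87, and that over all genes was -0.0222.

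The call of these 6 genes depended on which libraries gave the estimate of the spread. When only C replicates 8 and 9 and the 2 DM+SGLT2i libraries were fitted, a setting chosen after the data had been seen, the 6 genes rose with adjusted p-values of 0.0106 (Cd74) to 0.0493 (H2-DMa) at the same fold changes. That fit called 6.79% of all genes higher and 4.87% lower. The same kind of fit for DM-22 called no class II gene (adjusted p of 0.102 to 0.527), with 0% of all genes called. Both comparisons share the control libraries.

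Between the diabetic groups, all 7 genes had higher estimates in DM+SGLT2i than in DM-22, and none passed the test (adjusted p of 0.881 to 0.974 in the fit of all libraries, 0% of genes called). Ciita differed most, by 1.04 ± 0.28 (SE) on the log2 scale, a 2.06-fold difference with a 95% interval from 0.36 to 1.72 (adjusted p = 0.881, limma). It was the only one of the 7 with an unadjusted p below 0.05, beside 2.25% of all genes higher and 1.66% lower. The other genes differed by 0.15 (H2-Aa) to 0.42 (H2-DMa), with intervals that spanned 0. When the spread was estimated without C replicate 2, which left the fold changes as they were, H2-DMb1 at 0.40 ± 0.15 joined Ciita below an unadjusted p of 0.05 (6.86% of all genes higher, 3.89% lower, 0% called), and both had an adjusted p of 0.463. Treated libraries were above both DM-22 libraries for 6 of the 7 genes, H2-Aa being the exception, as they were for 21.4% of all genes. With 2 libraries a group, an exact two-sided permutation test of 1 gene could not go below p = 0.333. With 3 against 2 libraries there are only 10 arrangements, so that such a test is limited there too.

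**Figure D3:**
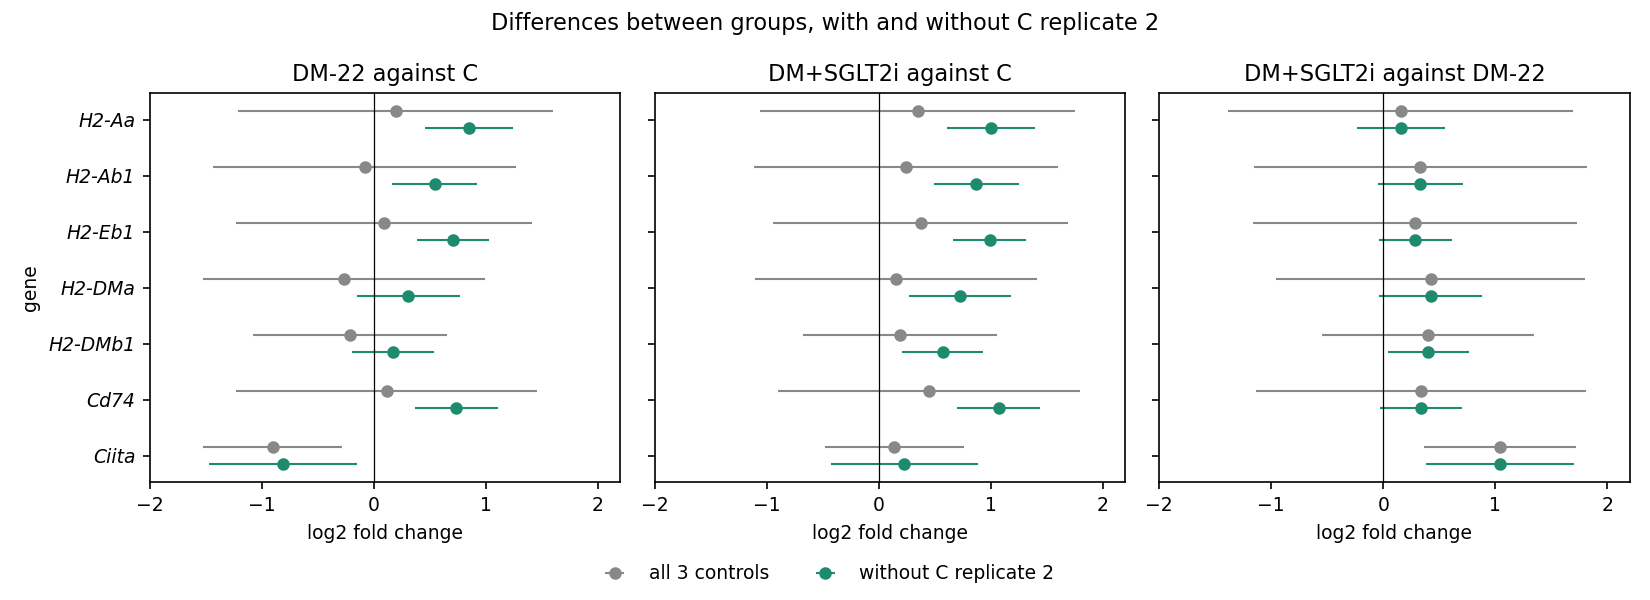
Log2 fold changes of the 7 genes in the 3 comparisons, fitted with all 3 controls (grey) and without C replicate 2 (green), with 95% confidence intervals (limma, log2(CPM + 0.5)). The fold changes against C of the 6 genes other than Ciita move upward without C replicate 2, for H2-Aa from 0.19 to 0.85 in DM-22, while Ciita stays at -0.90 and -0.81.

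Among the proteins that act with Ciita, Rfx5 had the same order of groups as Ciita. Rfx5, the DNA-binding subunit of RFX, was at 15.5, 16.8 and 15.9 CPM in C, 10.9 and 11.6 CPM in DM-22, and 20.4 and 14.7 CPM in DM+SGLT2i. Both DM-22 libraries were below all 5 others, and 9.29% of all genes tested had DM-22 below all 3 controls. Rfx5 differed by -0.50 ± 0.18 in DM-22 against all 3 controls (adjusted p = 0.804, limma), by -0.52 ± 0.18 without C replicate 2 (adjusted p = 0.161) and by 0.60 ± 0.19 in DM+SGLT2i against DM-22 (adjusted p = 0.881). The other RFX subunits Rfxap (10.0 to 13.5 CPM over the 7 libraries) and Rfxank (10.1 to 13.0 CPM), and the NF-Y subunits Nfya (23.0 to 29.6 CPM) and Nfyb (13.5 to 18.1 CPM), spanned narrower ranges. Of 17 genes listed for class II transcription and its induction by interferon-gamma, 15 had values and were tested. None was called in any comparison, and their median log2 fold change in DM-22 was -0.10 with all 3 controls and -0.06 without C replicate 2 (-0.04 and -0.07 in DM+SGLT2i).

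Nlrc5, the related transactivator of MHC class I genes, is named here after its values were seen. It was at 5.26, 3.41 and 4.87 CPM in C, 2.21 and 1.29 CPM in DM-22, and 5.81 and 3.47 CPM in DM+SGLT2i. Its DM-22 libraries were also below all others, and 9.29% of all genes tested had DM-22 below all 3 controls. Nlrc5 differed by -1.16 ± 0.33 in DM-22 against all 3 controls (adjusted p = 0.804, limma), by -1.05 ± 0.34 without C replicate 2 (adjusted p = 0.143) and by 1.18 ± 0.36 in DM+SGLT2i against DM-22 (adjusted p = 0.881). Transcript length moved with this comparison: the median log2 fold change in DM-22 was 0.14 over 2073 genes with under 2 kb of exon and -0.11 over 1682 genes with 8 to 12 kb, where Ciita lies with 9.535 kb. Without C replicate 2 these medians were 0.24 and -0.17. In DM+SGLT2i against DM-22 the same medians were -0.18 and 0.13. The part of transcript length in the difference of Ciita was not tested.

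The other genes of class II processing included 1 that passed the test, only with C replicate 2 left out. Ctss encodes cathepsin S, the protease that trims the invariant chain. It was at 93.1, 13.8 and 13.6 CPM in C, 29.9 and 28.6 CPM in DM-22, and 33.1 and 39.3 CPM in DM+SGLT2i, and C replicate 2 was again the highest and the other controls the lowest. Without C replicate 2, Ctss rose in DM+SGLT2i by 1.37 ± 0.13 on the log2 scale (adjusted p = 0.0490), and in DM-22 it differed by 1.07 ± 0.13 (adjusted p = 0.0781). With all 3 controls the differences were 0.46 ± 0.80 and 0.16 ± 0.80.

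Of 16 genes listed for this pathway, 15 had values and 13 were tested. Ctss was the only one called, in DM+SGLT2i against C without C replicate 2, where 0.122% of all genes tested were called. H2-DMb2, the copy of H2-DMb1, was at 18.1, 7.18 and 6.60 CPM in C, 7.09 and 8.65 CPM in DM-22, and 11.3 and 12.1 CPM in DM+SGLT2i, with the order of groups of H2-DMb1. Ifi30, the thiol reductase of antigen processing, ranged from 42.9 to 79.3 CPM, the protease Lgmn from 569 to 1032 CPM, and H2-Ob, a chain of the H2-O inhibitor of H2-DM, from 0.939 to 1.77 CPM. The median log2 fold change of the 13 genes against C was 0.16 in DM-22 and 0.09 in DM+SGLT2i with all 3 controls, and 0.17 and 0.27 without C replicate 2.

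Most genes of MHC class I presentation were also highest in C replicate 2. B2m, the light chain of class I, was at 677, 175 and 200.1 CPM in C, 294 and 321 CPM in DM-22, and 346 and 423 CPM in DM+SGLT2i. Its heavy chains H2-K1 and H2-D1 were at 729 and 822 CPM in C replicate 2 and at 211 to 285 CPM in the other controls. C replicate 2 was the highest library for 12 of the 14 genes. The share of all genes tested that were highest in this library was not counted, here or for the lists below. Against all 3 controls, 11 had positive estimates in DM-22 and 14 in DM+SGLT2i, with median log2 fold changes of 0.11 and 0.22. Without that library, 13 and 14 did, with medians of 0.43 and 0.51. The peptide transporter genes Tap1 and Tap2 were at 10.1 to 34.8 CPM and 27.9 to 47.5 CPM. No class I gene was called in any of these comparisons.

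Some genes listed for the interferon-gamma response had no values. The 9 with values were likewise all highest in C replicate 2. Their sum was 274 CPM there, 104.5 and 103 CPM in C replicates 8 and 9, 129.5 and 116.7 CPM in DM-22, and 159.7 and 171 CPM in DM+SGLT2i. Against all 3 controls the median log2 fold change of the 8 tested was -0.23 in DM-22 (1 higher, 7 lower) and 0.16 in DM+SGLT2i. With C replicate 2 left out it was 0.11 in DM-22 (5 higher, 3 lower) and 0.67 in DM+SGLT2i, so that the direction in DM-22 depended on this library, and none was called either way. The GTPase gene Irgm1 ranged from 43.3 to 123 CPM and the chemokine gene Cxcl9 from 0.882 to 6.08 CPM.

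Most markers of leukocytes and macrophages moved with the class II genes across the libraries, but this was not particular to immune cells. The 6 markers of tubular injury, highest in C replicate 2 as given above, summed to 2083 and 1824 CPM in DM-22 and to 2850 and 3093 CPM in DM+SGLT2i. The 8 leukocyte markers summed to 316 CPM in C replicate 2, 115 and 120 CPM in C replicates 8 and 9, 185 and 167 CPM in DM-22, and 210.4 and 210.7 CPM in DM+SGLT2i. All 8 were highest in C replicate 2. By gene, 6 of the 8 were above both C replicates 8 and 9 in each DM-22 library, and 8 and 7 in the DM+SGLT2i libraries. Ptprc was below these controls (10.4 and 12.7 CPM) in both DM-22 libraries, at 9.79 and 9.64 CPM. Laptm5 alone gave 79.0 and 69.5 CPM of the DM-22 sums, against 31.7 and 35.7 CPM in C replicates 8 and 9. The 11 macrophage markers summed to 655 CPM in C replicate 2, 239 and 235 CPM in the other controls, 354 and 237 CPM in DM-22, and 384 and 423 CPM in DM+SGLT2i, and 9 of them were highest in C replicate 2. By gene, 10 and 8 of the 11 macrophage markers were above both C replicates 8 and 9 in DM-22 replicates 1 and 2, and 9 and 10 in the DM+SGLT2i libraries. Over all genes tested, 29.9% were above both in both DM-22 libraries and 28.2% in both DM+SGLT2i libraries. Shares for single libraries were not counted, here or for the lists below. The low sum of DM-22 replicate 2 went with Csf1r, at 37.3 CPM against 109.7 CPM in DM-22 replicate 1 and 77.4 and 68.8 CPM in these controls. Lyz2 and Mertk are named here after their values were seen. Lyz2 was at 36.5 CPM in DM-22 replicate 2 against 77.4 CPM in DM-22 replicate 1. Mertk was below these controls (80.4 and 74.9 CPM) in every other library. It was at 45.5 CPM in C replicate 2, 36.2 and 53.3 CPM in DM-22, and 69.0 and 59.25 CPM in DM+SGLT2i. With all 3 controls, the macrophage median log2 fold change was 0.08 in DM-22 and 0.46 in DM+SGLT2i, the leukocyte median was 0.04 and 0.18, and no marker was called. Without C replicate 2 the macrophage medians were 0.79 and 1.28, the leukocyte medians 0.55 and 0.68, and 1 leukocyte marker (Laptm5, 1.37 ± 0.13) and 1 macrophage marker (C1qa, 1.502 ± 0.13) rose in DM+SGLT2i, both with an adjusted p of 0.0490, as 0.122% of all genes were called. With all 3 controls these were at 0.71 ± 0.59 and 0.59 ± 0.80 (adjusted p = 0.9997). The part of these cells in the class II differences was not tested.

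Sums of the other immune markers were lower. The 10 dendritic cell markers summed to 28.7 CPM in C replicate 2, 20.5 and 26.5 CPM in the other controls, 13.7 and 21.2 CPM in DM-22, and 26.8 and 22.4 CPM in DM+SGLT2i. By gene, 6 of the 10 were above both C replicates 8 and 9 in C replicate 2, 0 and 5 in DM-22 replicates 1 and 2, and 4 in each DM+SGLT2i library. The most abundant marker in those controls, the transcription factor gene Zbtb46, was at 8.41, 9.94 and 13.1 CPM in C, 7.45 and 6.24 CPM in DM-22, and 10.2 and 9.01 CPM in DM+SGLT2i, and the integrin gene Itgax was at 9.49, 4.76 and 4.42 CPM in C, 2.16 and 5.23 CPM in DM-22, and 7.26 and 5.02 CPM in DM+SGLT2i. The 8 B cell markers summed to 3.68 to 7.46 CPM over all libraries, and 5 of them were too low to be tested. The 8 T cell markers summed to 17.3 CPM in C replicate 2, 6.99 and 6.33 CPM in the other controls, 19.5 and 9.67 CPM in DM-22, and 11.3 and 14.4 CPM in DM+SGLT2i, and Trac alone gave 12.4 CPM of the sum in DM-22 replicate 1. All 8 T cell markers were above both C replicates 8 and 9 in C replicate 2 and in each DM+SGLT2i library. Of all genes tested, 28.2% were above both in both DM+SGLT2i libraries. In DM-22 replicates 1 and 2, 4 and 7 of the 8 markers were above both, and 6 of the 8 were highest in C replicate 2. Some margins were small, with Cd3e at 0.822 CPM in DM+SGLT2i replicate 1 and 0.8 CPM in C replicate 8. None of the immune cell markers was at 0 in any library. The 7 endothelial markers summed to 704, 519 and 547 CPM in C, 787 and 612.5 CPM in DM-22, and 643 and 683 CPM in DM+SGLT2i. Their sums were thus also above C replicates 8 and 9 in every other library. The 4 lymph node stroma markers summed to 16.4 CPM in C replicate 2 (2.61-fold over the mean of the other controls) and to 4.37 to 8.26 CPM in the others.

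**Figure D4:**
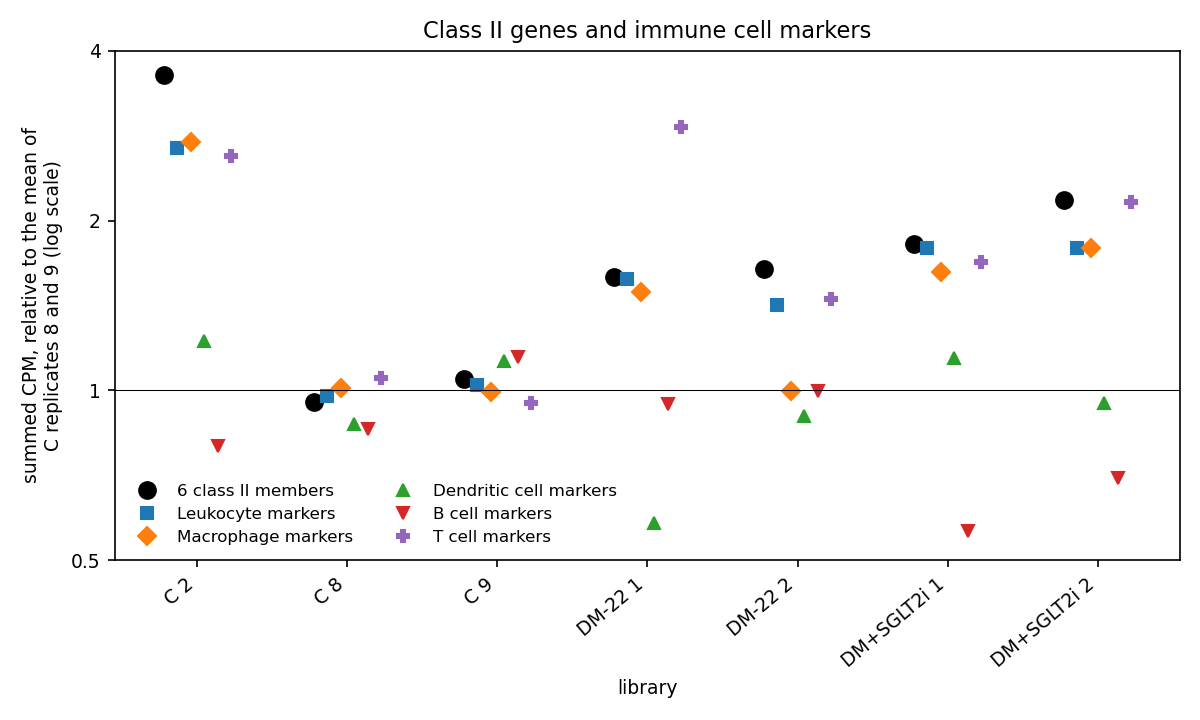
Summed CPM of the 6 class II genes other than Ciita and of 5 lists of immune cell markers in each library, relative to the mean of C replicates 8 and 9 (log axis, points are single libraries). Class II, leukocyte and macrophage sums are highest in C replicate 2, at 1812, 316 and 655 CPM, whereas dendritic cell markers reach 28.7 CPM there and are lowest in DM-22 replicate 1 at 13.7 CPM.

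The genes most like the mean of the 7 standardized class II genes were Rin1, Cd68, Mxra7, Ifi209, Gpx7, Zbp1, Marcks, Nckap1l, Mpeg1 and Plek, with Pearson's r of 0.989 to 0.995 over the 7 libraries. With 6 libraries, C replicate 2 left out, r was 0.974 to 0.995. Cd68, a macrophage lysosomal protein, was at 17.8, 3.47 and 4.08 CPM in C, 5.598 and 5.55 CPM in DM-22, and 8.77 and 8.74 CPM in DM+SGLT2i. Mpeg1, the pore-forming perforin-2 of phagocytes, was at 89.99, 22.2 and 24.4 CPM in C, 34.7 and 36.2 CPM in DM-22, and 48.5 and 49.1 CPM in DM+SGLT2i. The r of the class II genes with this mean, which includes them, was 0.942 to 0.988 for the 6 genes and 0.412 for Ciita. The genes most like Ciita, looked for after its values were seen, were led by Ptprs (r = 0.988), a receptor tyrosine phosphatase, at 21.8, 14.9 and 15.2 CPM in C, 7.69 and 9.30 CPM in DM-22, and 25.5 and 14.0 CPM in DM+SGLT2i.

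Parts of some transcripts cannot be assigned to 1 gene with certainty. Of the 50-base stretches of H2-DMb1, 22.6% also occur in H2-DMb2. H2-DMa shares 360 bases of exon with Brd2 on the opposite strand, and Brd2 reached 286 CPM, above H2-DMa. Ciita likewise shares 329 bases with Dexi, which reached 16.5 CPM. The strand setting of the read counting is not given in the sources used here. H2-Ab1, H2-Eb1 and Cd74 had no stretch of 50 bases in common with another annotated gene. The part of Brd2 reads in the H2-DMa values, and of Dexi reads in those of Ciita, was not tested.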

How the data were processed

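Kidney RNA sequencing libraries (C, n = 3, DM-22, n = 2, DM+SGLT2i, n = 2) were grouped by their sample titles. The authors deposited 1 table of log2 values for 17537 genes: library-scaled read counts (CPM) with TMM normalization and a small constant under the logarithm. The submitters' processing notes name bcl2fastq, FastQC, Trim Galore, STAR, edgeR and build mm10, and the read counter is not given in the sources used here. CPM were recovered by raising 2 to each deposited log2 value and subtracting the same power of the shared floor (-4.66). The recovered reads were whole for 100% of values, within 0.05 reads, and the TMM factors were 0.891 to 1.08. The design had assumed CPM, and the test on a log scale was kept.

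The 13976 genes that reached 1 CPM in 2 or more libraries entered limma 3.58.1 (R 4.3.3) on log2(CPM + 0.5), by lmFit and eBayes with trend. The 3 groups were fitted together, with two-sided p-values, Benjamini-Hochberg adjustment over all genes tested and a threshold of 0.05. Fold changes are on the log2(CPM + 0.5) scale, which understates those of low genes. The fit was tested on simulated counts with the same dispersion for all genes and no library that stood apart. These data differ in both respects, so that this test does not show how the fit performs on them. Gene positions and exon lengths are from GENCODE M21 (GRCm38), to which all 17537 identifiers and 17476 symbols matched. Motifs and figures used Python 3.11.15, numpy 2.4.6, pandas 2.3.3 and matplotlib 3.10.9.

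The 7 genes and all lists were chosen with earlier results of these data known, so that counts and medians of lists are descriptions. All 7 genes are named, and from each list at most 5 genes, the first tested in the order written, with the 10 genes most like the mean of the 7. Exceptions are stated. Alternatives covered the pseudocount, the filter, the scaling, limma-voom on recovered reads, groups fitted in pairs, a replicate block and each library left out. Diabetic libraries with the same replicate number did not deviate together (correlation -0.0412), and the labels name no shared animal or batch.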

Additional observations from a re-analysis of the deposited data

How the results depend on the processing

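Of the class II fold changes under all alternatives, those that changed sign did so mostly with the controls in the fit. With C replicate 2 left out, more genes passed the adjusted threshold: 0 to 2 in DM-22 and 0 to 17 in DM+SGLT2i against C over the fits that each left out a library. Over those fits the log2 fold change in DM-22 against C ranged from -0.18 to 0.85 for H2-Aa, -0.45 to 0.54 for H2-Ab1, -0.25 to 0.71 for H2-Eb1, -0.61 to 0.30 for H2-DMa, -0.43 to 0.17 for H2-DMb1 and -0.22 to 0.74 for Cd74, in each case lowest without C replicate 8 and highest without C replicate 2. In DM+SGLT2i against C it ranged from -0.023 to 1.0 for H2-Aa, -0.12 to 0.87 for H2-Ab1, -0.19 to 0.73 for H2-DMa, -0.033 to 0.57 for H2-DMb1 (lowest without C replicate 8, highest without C replicate 2) and -0.19 to 0.47 for Ciita (lowest without DM+SGLT2i replicate 1, highest without replicate 2). In DM+SGLT2i against DM-22, H2-Aa ranged from -0.015 (without DM+SGLT2i replicate 2) to 0.32. No class II fold change changed sign, and no gene of class II was called, with a pseudocount of 0.1 or 2 CPM, the deposited log2 values, no filter, a filter of 5 CPM, library totals without TMM, limma-voom with all libraries or the compared groups alone with all 3 controls. Ciita in DM-22 against C kept its sign throughout, from -1.06 to -0.75 with each library left out and at -0.69 with a pseudocount of 2 CPM.

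In 2 settings chosen after the data were seen, C replicate 2 was left out together with another change. With only C replicates 8 and 9 and the compared group fitted, DM-22 gave 0.54 for H2-Ab1, 0.30 for H2-DMa and 0.17 for H2-DMb1, and DM+SGLT2i gave 1629 genes and 6 class II genes called. With limma-voom on recovered reads of the libraries other than C replicate 2, these 3 genes were at 0.55, 0.32 and 0.17 in DM-22, and 4 genes, none of class II, were called in DM+SGLT2i. The cause was not tested.

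With the replicate number of the diabetic libraries as a replicate block, 0 genes were called in DM+SGLT2i against DM-22, and Ciita was at 1.04 (adjusted p = 0.734). No crossed pairing was fitted. The groups of 2 and 3 limit every comparison, and Ciita, at 150 to 446 reads, has the fewest reads of the 7 genes.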
